A study of Mus musculus with 6 samples.

Results

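The genes of the CHD, ISWI and INO80 remodelers, the NuRD complex and the Polycomb repressive complexes were followed through RNAseq of GFP+ cells sorted as NCCs. They were chosen by a list of 50 gene symbols, matched to the counted genes through Ensembl identifiers and the GENCODE M21 annotation, and all 50 were found among 46983 genes. In this set 9 encode CHD proteins, 5 belong to ISWI complexes, 3 to INO80 and SWR1-like complexes, 11 to NuRD, 7 to PRC2 and 15 to PRC1. The filter on low counts kept 49 of them among 13961 tested genes. Chd5 did not pass it, with between 0.190 and 1.20 counts scaled to library size (CPM) in a library.

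These complexes work beside BAF on the same nucleosomes. CHD, ISWI and INO80 ATPases slide, space or exchange nucleosomes, and NuRD joins a CHD ATPase to histone deacetylases and to proteins that read methylated DNA. PRC2 methylates histone H3 on lysine 27, PRC1 reads that mark through its Cbx subunits and ubiquitylates histone H2A, and both keep developmental genes silent. BAF complexes and Polycomb oppose each other at such genes, and Chd7 is known for its role in the neural crest, where its human counterpart is mutated in CHARGE syndrome.

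The libraries came from GFP+ cells of E11.25 mouse embryos, sorted by FACS. Control embryos were Wnt1 Cre/+, BAF155 flox/+, BAF170 flox/+ and Rosa26 mTmG/+, whereas BAF155/170-deficient embryos had flox/flox at both BAF155 and BAF170 beside the same Cre and reporter alleles. There were 3 libraries of each, and the methods name 3 embryos per genotype. Every embryo thus carried the Cre, which is driven from Wnt1 and marks NCCs and other cells of Wnt1 history. The controls carried a floxed copy of each BAF gene, and its loss in the sequenced cells was not tested. The p-values measure the spread between these 3 samples per group.

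Libraries held 8191219 to 19808620 counts, the deficient ones all being deeper than the controls. The targeted Smarcc1, which encodes BAF155, fell (log2 fold change −0.71, SE 0.156, adjusted p = 0.0676), while Smarcc2, which encodes BAF170, had −0.11 (SE 0.058, adjusted p = 0.251, edgeR with Benjamini-Hochberg adjustment). Smarcc1 lost its call without control replicate 1 (adjusted p = 0.222), deficient replicate 2 (0.132) or deficient replicate 3 (0.225), and fell short of the fold change threshold without control replicate 2 (−0.53) or with a correction for exon length (−0.57). Counts per gene also include transcripts that lost only the floxed exons. The label of NCCs was checked against markers. The 20 neural crest lineage markers made up 0.00486% to 0.0162% of a library's counts, with Sox10 between 0.855 and 7.76 CPM and none at 0 in any library. The 12 macrophage markers made up between 1.15% and 1.71% in every library, controls included, with Ctss between 3371 and 4299 CPM. The markers thus went against the label of NCCs in all 6 libraries, which are called control and deficient libraries from here on. Of the 18 neural crest markers tested, 10 were called lower (the median over the 18 was −1.18 on the log2 scale), and the 12 macrophage markers had a median of 0.19, with 1 of 12 at an adjusted p of at most 0.1. In such bulk RNA, fewer cells of a type and less RNA per cell cannot be told apart. The part of cell composition in the values below was not tested.

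Among the 49 tested genes, 2 were called lower in the deficient libraries and 0 higher. The called genes were Cbx2 and Pcgf2, both subunits of PRC1. To be called, a gene needed an adjusted p no higher than 0.1, a log2 fold change of 0.58 or more in size and a mean level of 2 CPM or more. The share called lower was 4.08%, and that of all tested genes was 4.88%. For calls of higher expression, the background was 0.0573%. DESeq2 and limma-voom also called 0 genes of the set higher. By edgeR 1 of the 49 had an unadjusted p under 0.05 in that direction, against 1684 of all 13961 tested genes.

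On the adjusted p alone, 8 genes of the set fell, or 16.3% against 7.75% of all tested genes, and 0 rose, against 4.18%. Besides Cbx2 and Pcgf2 these were Chd4, Smarca5, Ep400, Mta1, Hdac2 and Mtf2, with log2 fold changes between −0.50 and −0.21. The excess over all tested genes depended on the setting. In either direction, 6 of the 49 passed with a correction for exon length, against 13.1% of all tested genes. With library totals 4 of the 49 passed, against 7.75%. All deficient libraries lay below all controls in 10 genes, or 20.4% against 16.4% of all tested genes. They lay above all controls in 2 genes, or 4.08% against 15%. These 2 were Mbd2 and Phc2.

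The fold changes of most genes in the set were small. The median log2 fold change was −0.14 against −0.02 over all tested genes, and it turned to 0.02 with a correction for exon length. In 26 of the 49 genes, or 53.1%, the log2 fold change lay within 0.2 of 0, and the same share of all tested genes, 53.1%, did so. Without deficient replicate 3 the median was −0.06. The number called lower rested on single libraries, being 0 without control replicate 1, without control replicate 2 or without deficient replicate 3, 1 without deficient replicate 2, 5 without control replicate 3 and 6 without deficient replicate 1. Each of the 8 genes with an adjusted p of at most 0.1 lost it without control replicate 1 (adjusted p between 0.214 and 0.278), without control replicate 2 (between 0.177 and 0.285) and without deficient replicate 3 (between 0.20 and 0.304). All but Pcgf2 also lost it without deficient replicate 2 (between 0.113 and 0.216), and Ep400 and Mta1 without deficient replicate 1 (0.102 each). Without control replicate 1, 0 genes of the whole table were called. Over all tested genes, 681 were called lower with every library kept. This number was 61 after dropping control replicate 2, 17 after dropping deficient replicate 3 and 219 after dropping deficient replicate 2. It rose to 1219 when control replicate 3 was dropped and to 1030 for deficient replicate 1. A call lost in such a fit, for these or other genes, thus does not set a gene apart.

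**Figure D1:**
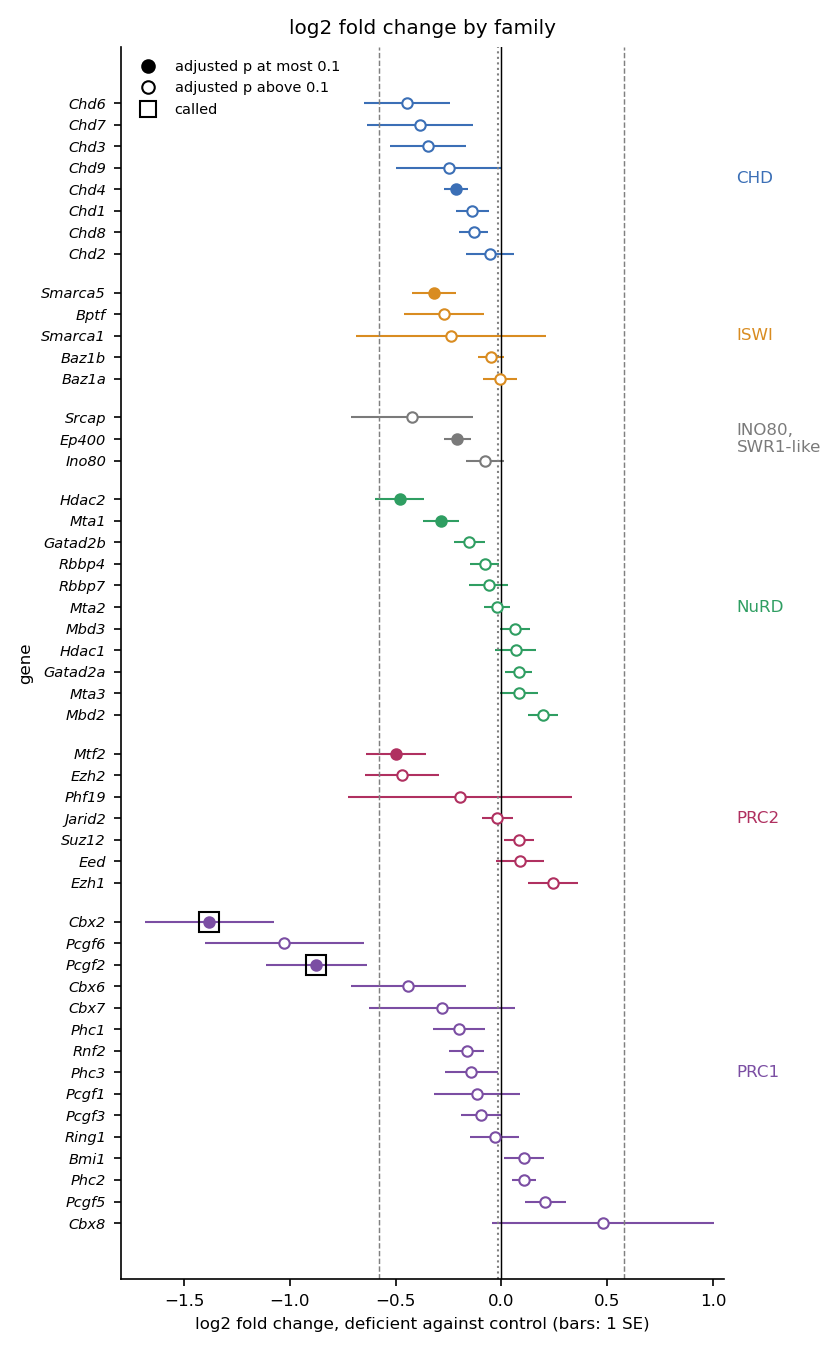
Log2 fold change of deficient against control libraries for the 49 tested genes, by family, with bars of 1 SE. Filled points have an adjusted p of at most 0.1, squares mark the 2 called genes, dashed lines the fold change threshold of 0.58 and the dotted line the median of all tested genes. Before any correction for exon length, 37 genes lie below 0 and 12 above, and the correction changes this to 23 and 26.

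The Cbx proteins are the chromodomain subunits that tether canonical PRC1 to methylated histone H3. Cbx2 (ENSMUSG00000025577.7) lies on chromosome 11 of GRCm38 between 119022962 and 119031270. It had 9.36, 12.6 and 5.33 CPM in control libraries, given in the order of replicates 1 to 3 here and throughout, against 4.31, 3.06 and 3.04 CPM in deficient libraries. Every deficient value was below every control value, and the controls differed among themselves by more than the deficient libraries did. Cbx2 fell with a log2 fold change of −1.38 (SE 0.305, adjusted p = 0.0600, edgeR with Benjamini-Hochberg adjustment), the lowest of the set, and the value was −1.35 with the length correction. Leaving out a library took its adjusted p above 0.1 for control replicate 1 (edgeR, adjusted p = 0.222) and control replicate 2 (0.177), as well as for deficient replicates 2 (0.113) and 3 (0.20). The summed neural crest markers moved the same way, with 127, 177 and 94.0 CPM in control libraries against 77.1, 49.2 and 47.1 CPM in deficient libraries. The summed erythroid markers were 25.7, 67.4 and 17.2 CPM among the controls and 16.4, 10.1 and 16.0 CPM among the deficient libraries, with 0 of the 7 tested at an adjusted p of at most 0.1. Control replicate 2 was the highest library for both marker sums and for Cbx2. The part of either in the fall of Cbx2 was not tested.

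The other Cbx genes of the set did not pass the test. Cbx6 was about as low as Cbx2, with 52 to 98 counts per library against 50 to 94, and Cbx7 and Cbx8 were lower. Cbx8, which has the highest log2 fold change of the set, had 1.17, 2.41 and 1.23 CPM in control libraries against 1.72, 3.85 and 0.997 CPM in deficient libraries. The groups overlapped, the value of 0.48 (SE 0.525, adjusted p = 0.594) was set by deficient replicate 2, and without that library it was −0.23. Cbx6 had a log2 fold change of −0.44 (SE 0.272) and Cbx7 of −0.28 (SE 0.344).

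The Pcgf proteins are RING finger subunits that set which form of PRC1 assembles. Pcgf2, also known as Mel18, is a subunit of canonical PRC1 (ENSMUSG00000018537.16, chromosome 11 from 97688823 to 97700497). It had 7.55, 8.16 and 6.48 CPM in control libraries against 3.60, 5.32 and 3.13 CPM in deficient libraries. The lowest control lay above the highest deficient library, at 46 to 87 counts per library. Pcgf2 fell with a log2 fold change of −0.88 (SE 0.239, adjusted p = 0.0775), and the length correction gave −0.87. It was no longer called when control replicate 1 (edgeR, adjusted p = 0.245), control replicate 2 (0.229) or deficient replicate 3 (0.257) was left out.

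A window around a RefSeq start of Pcgf2 is shown because the study examined Tead factors and the window holds their core motif, here GGAATG searched on both strands. The GENCODE gene begins at 97700497 on the minus strand, so this window lies inside the gene and does not hold that start. The study searched longer promoters for Tead motifs. It comes from RefSeq (GRCm38.p6, chr11:97699599-97699898, minus strand, 300 bases around the start), and capitals mark the motif, which begins at base 104.
Pcgf2: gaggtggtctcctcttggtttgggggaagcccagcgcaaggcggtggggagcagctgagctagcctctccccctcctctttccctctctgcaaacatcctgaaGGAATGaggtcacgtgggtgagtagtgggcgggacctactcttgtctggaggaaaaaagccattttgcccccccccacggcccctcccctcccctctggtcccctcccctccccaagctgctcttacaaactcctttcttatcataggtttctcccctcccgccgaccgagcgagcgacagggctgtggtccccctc
Windows were found for 40 of the 50 genes, 51 windows in all, and Cbx2 had none. The motif stood in 5 of the 51, or 9.80%, against 14.7% of 32851 windows of the same length, and the other 4 genes with it were Bmi1, Chd6, Gatad2a and Gatad2b. None of these 4 was called.

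The remaining Pcgf genes did not pass the test. Pcgf6, a subunit of variant PRC1, was picked after its values were seen because its log2 fold change of −1.03 (SE 0.375, adjusted p = 0.115) was the second lowest of the set. It had 3.19, 4.15 and 1.97 CPM in control libraries against 2.11, 1.10 and 1.33 CPM in deficient libraries, so the groups overlapped at 18 to 31 counts per library. Bmi1, the close relative of Pcgf2 and the Pcgf gene with the highest level per kilobase in every library, had 27.1 ± 2.59 CPM in control libraries against 29.1 ± 1.94 CPM in deficient libraries (SD, n = 3). Its log2 fold change was 0.11 (SE 0.096). Pcgf1, Pcgf3 and Pcgf5 had log2 fold changes of −0.12, −0.10 and 0.21, and that of Pcgf3 turned to 0.08 with the length correction. Of the summed Pcgf levels per kilobase, Pcgf2 held between 9.40% and 10.6% in the controls and between 4.75% and 7.52% in the deficient libraries, with no overlap.

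The catalytic and polyhomeotic subunits of PRC1 had small values. Rnf2, the main E3 ligase of the complex, had 26.3 ± 1.12 CPM in control libraries against 23.4 ± 0.563 CPM in deficient libraries (SD, n = 3). All deficient libraries lay below all controls, but the log2 fold change of −0.16 (SE 0.083, adjusted p = 0.227, edgeR) did not pass the test. Its relative Ring1 had −0.03 (SE 0.115), which became 0.03 with library totals and 0.02 with no filter on low counts. Phc2, a scaffold that polymerizes through its SAM domain, had the highest level per kilobase of PRC1. It had 169, 169 and 176 CPM in control libraries against 178, 185 and 192 CPM in deficient libraries. The deficient values were all above the controls, and the log2 fold change of 0.11 (SE 0.056, adjusted p = 0.236) did not pass the test. Phc1 had −0.20 (SE 0.124) and Phc3 −0.14 (SE 0.127), the latter turning to 0.16 with the length correction.

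**Figure D2:**
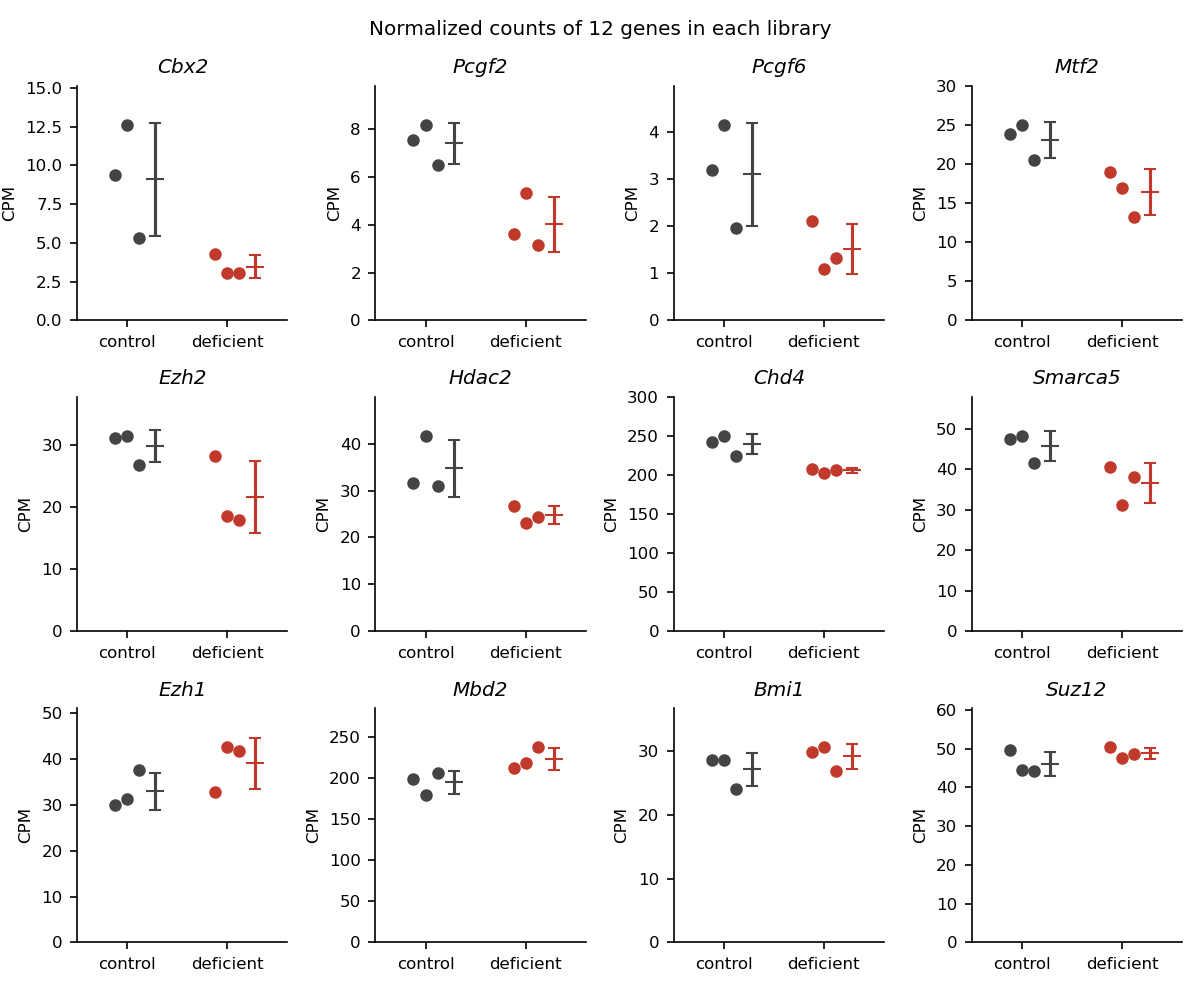
Normalized counts (CPM, linear axes from 0) of 12 genes in each library, with the mean and 1 SD of the 3 libraries of a group beside the points. Cbx2, Pcgf2, Mtf2, Hdac2, Chd4 and Smarca5 have all deficient libraries below all controls, Mbd2 has them above, and Pcgf6, Ezh2, Ezh1, Bmi1 and Suz12 overlap.

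PRC2 consists of a methyltransferase, Ezh1 or Ezh2, with Eed and Suz12, and of accessory subunits that guide it to chromatin. Of the 7 genes 1 fell, or 14.3% against 7.75% of all tested genes. This was the accessory Mtf2, which binds unmethylated CpG islands. Mtf2 had 23.8, 25 and 20.5 CPM in control libraries against 19.0, 17 and 13.2 CPM in deficient libraries. The groups did not overlap, and the log2 fold change was −0.50 (SE 0.140, adjusted p = 0.0811), or −0.43 with the length correction. This change lay under the fold change threshold. Jarid2 and Phf19, also accessory subunits, had log2 fold changes of −0.02 (SE 0.074) and −0.20 (SE 0.530). That of Jarid2 turned to 0.16 with the length correction, 0.04 with library totals and 0.03 with no filter.

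The core subunits did not pass the test. Suz12, which holds the complex together and had the highest level per kilobase of PRC2, had 49.7, 44.4 and 44.3 CPM in control libraries against 50.4, 47.6 and 48.6 CPM in deficient libraries. The groups overlapped, with a log2 fold change of 0.08 (SE 0.073, adjusted p = 0.493). Eed, which reads the methyl mark, had 0.09 (SE 0.112). Ezh1, the methyltransferase typical of resting cells, had 30.0, 31.3 and 37.6 CPM in control libraries against 32.7, 42.6 and 41.8 CPM in deficient libraries. Control replicate 3 lay among the deficient values, and the log2 fold change was 0.24 (SE 0.119, adjusted p = 0.218). Ezh2, the methyltransferase typical of dividing cells, was picked after its values were seen. It had 31.1, 31.4 and 26.8 CPM in control libraries against 28.2, 18.6 and 17.9 CPM in deficient libraries. Deficient replicate 1 lay among the controls and the other two well below them. The log2 fold change was −0.47 (SE 0.175, adjusted p = 0.133 by edgeR, 0.0780 by DESeq2 and 0.0921 by limma-voom).

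The start windows of both methyltransferases are shown because these genes had log2 fold changes of opposite sign. They come from RefSeq (GRCm38.p6, minus strand, Ezh2 at chr6:47594981-47595280 and Ezh1 at chr11:101226414-101226713). The GENCODE start of Ezh2, at 47595341, lies outside its window. Capitals mark the E2f motif TTTGGCGC, searched on both strands, which begins at base 254 of the Ezh2 window.
Ezh2: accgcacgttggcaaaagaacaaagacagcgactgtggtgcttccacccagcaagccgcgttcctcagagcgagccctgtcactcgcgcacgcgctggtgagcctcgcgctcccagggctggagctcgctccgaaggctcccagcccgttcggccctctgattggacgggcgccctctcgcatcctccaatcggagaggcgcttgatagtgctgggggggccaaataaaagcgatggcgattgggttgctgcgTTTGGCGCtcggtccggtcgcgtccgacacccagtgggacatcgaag
Ezh1: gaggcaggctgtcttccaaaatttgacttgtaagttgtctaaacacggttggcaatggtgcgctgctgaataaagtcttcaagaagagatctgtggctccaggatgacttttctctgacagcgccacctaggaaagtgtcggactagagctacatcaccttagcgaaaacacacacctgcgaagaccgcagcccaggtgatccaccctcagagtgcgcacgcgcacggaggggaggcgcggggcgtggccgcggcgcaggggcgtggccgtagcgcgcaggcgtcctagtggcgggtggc
The motif was found in 0.514% of 32851 windows and in 1 of the 51 windows of the set. The Ezh2 window held 31 CpG dinucleotides and the Ezh1 window 23. Cell cycle genes, many of which answer to E2f factors, lay below 0 in 17 of 18 cases, against 7305 of all 13961 tested genes. Their median was −0.45 on the log2 scale, against −0.02 over all tested genes. Of the 18 genes 1 was called lower, or 5.56% against 4.88% of all tested genes. This was Ccna2 (−0.73, adjusted p = 0.0965, edgeR), while Pcna had 0.17 and E2f1 itself −0.10 (adjusted p = 0.640, edgeR). Ccna2 was no longer called when control replicates 1 (edgeR, adjusted p = 0.282) or 2 (0.268), or deficient replicates 2 (0.199) or 3 (0.309), were left out. The part of the cell cycle genes in the values of Ezh2 was not tested.

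NuRD held the most abundant genes of the set. Per kilobase of exon, 8 of the 10 highest control levels were those of genes listed here under NuRD, and Mbd2 was the highest of all 50. Chd4, the NuRD ATPase listed here under CHD, came next at 29.8 CPM per kilobase. Mbd2, a methyl-CpG reader, had 199, 179 and 207 CPM in control libraries against 213, 219 and 238 CPM in deficient libraries. The deficient values all lay above the controls, but the log2 fold change of 0.20 (SE 0.070, adjusted p = 0.109, edgeR) did not pass the test, and DESeq2 gave an adjusted p of 0.0701. Its relative Mbd3 had 0.06 (SE 0.071).

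The deacetylases of NuRD are Hdac1 and Hdac2. Hdac2 had 31.5, 41.6 and 31.0 CPM in control libraries against 26.8, 23.1 and 24.4 CPM in deficient libraries. The groups did not overlap, control replicate 2 was well above the other controls, and Hdac2 fell with a log2 fold change of −0.48 (SE 0.117, adjusted p = 0.0676). Without control replicate 2 the value was −0.34 (adjusted p = 0.190), and the length correction gave −0.44. Hdac1 had 34.8 ± 1.91 CPM in control libraries against 36.5 ± 4.42 CPM in deficient libraries (SD, n = 3), with a log2 fold change of 0.07 (SE 0.098).

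Among the scaffolds, Mta1 fell. It had 38.9, 42.9 and 35.3 CPM in control libraries against 32.0, 32.7 and 31.2 CPM in deficient libraries, with no overlap. Its log2 fold change was −0.28 (SE 0.085, adjusted p = 0.0882), and the length correction gave −0.28 as well. Its adjusted p was above 0.1 with DESeq2 (0.149), library totals (0.244) and no filter on low counts (0.171). Mta2 had −0.02 (SE 0.060), which took the other sign with the length correction, library totals or no filter, and Mta3 had 0.08 (SE 0.088). The p66 subunits Gatad2a and Gatad2b had 0.08 (SE 0.065) and −0.15 (SE 0.073), and Gatad2b turned to 0.06 with the length correction. The histone chaperones Rbbp4 and Rbbp7, which NuRD shares with PRC2, had −0.08 (SE 0.068) and −0.06 (SE 0.093), and the length correction turned Rbbp4 to 0.08. Of the exon bases of Rbbp4, 18.0% overlap a gene on the other strand, and the strand setting of the counting is not given in the sources used here.

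Of the 8 CHD genes tested, 1 fell, the NuRD ATPase Chd4. This is 12.5%, against 7.75% of all tested genes and 18.2% of those with at least 8000 bases of exon. All 8 had log2 fold changes below 0, with a median of −0.23, but with the length correction 4 lay below and 4 above, with a median of −0.03. Chd4, the CHD gene with the highest level per kilobase, had 243, 250.0 and 225 CPM in control libraries against 208, 203 and 207 CPM in deficient libraries. The groups did not overlap and the deficient libraries lay close together. The log2 fold change was −0.21 (SE 0.058, adjusted p = 0.0773), and it was −0.07 with the length correction (adjusted p = 0.559, edgeR). It also missed the threshold with library totals (adjusted p = 0.429) and no filter (0.257). Its relative Chd3 had −0.35 (SE 0.180, adjusted p = 0.268).

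The CHD6 to CHD9 class holds long genes, with a median of 17808 exon bases. Chd6 had 38.0, 42.9 and 29.1 CPM in control libraries against 32.0, 28.4 and 20.4 CPM in deficient libraries. The groups overlapped, and the log2 fold change was −0.45 (SE 0.203, adjusted p = 0.212), or −0.12 with the length correction. Chd7 had 63.2, 72.2 and 50.1 CPM in control libraries against 53.1, 56.0 and 33.0 CPM in deficient libraries, which overlapped as well. Its log2 fold change was −0.38 (SE 0.249, adjusted p = 0.381), or −0.14 with the length correction. Chd9 had 25.7, 27.2 and 14.1 CPM in the deficient libraries against 26.4 ± 1.74 CPM in the controls (SD, n = 3). In all of Chd6, Chd7 and Chd9 deficient replicate 3 was the lowest library, and without it Chd9 had a log2 fold change of 0.01 in place of −0.25. Chd8, which had −0.13 (SE 0.070), turned to 0.17 with the length correction. Chd7 and Chd9 were picked for display after their values were seen.

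Chd1 and Chd2, whose chromodomains are linked to active genes, were close to 0. Chd2 had the highest log2 fold change of the family, with 57.6, 53.6 and 47.3 CPM in control libraries against 53.9, 56.3 and 42.5 CPM in deficient libraries. The groups overlapped, and the value was −0.05 (SE 0.114, adjusted p = 0.796) or 0.21 with the length correction. Chd1 had −0.14 (SE 0.077), or 0.02 with the correction. Of the exon bases of Chd2, 18.4% overlap another gene on the same strand, and the treatment of such reads is not given in the sources used here.

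The ISWI complexes slide nucleosomes into regular arrays around the ATPases Smarca5 (SNF2H) and Smarca1 (SNF2L). Of the 5 genes 1 fell, or 20% against 7.75% of all tested genes. This was Smarca5, with 47.4, 48.2 and 41.5 CPM in control libraries against 40.6, 31.2 and 38.0 CPM in deficient libraries. The lowest control exceeded the highest deficient library by less than either group's own range. The log2 fold change was −0.32 (SE 0.103, adjusted p = 0.0965), but the length correction gave −0.18 (adjusted p = 0.284) and DESeq2 and limma-voom gave adjusted p of 0.121 and 0.105. With library totals it was 0.234. Smarca1 was low, with 5.25, 2.26 and 1.33 CPM in the deficient libraries and 3.37 ± 0.216 CPM in the controls (SD, n = 3).

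Baz1a and Baz1b are bromodomain partners of Smarca5, and Bptf is the large subunit of the NURF complex. Baz1a had 42.2, 42.8 and 37.3 CPM in control libraries against 40.7, 38.6 and 42.1 CPM in deficient libraries. The groups overlapped, and the log2 fold change of −0.01 (SE 0.079, adjusted p = 0.966) took the other sign with DESeq2, limma-voom, library totals, no filter and the length correction. Baz1b, the ISWI gene with the highest level per kilobase, had 131, 138 and 131 CPM in control libraries against 134, 132 and 120.4 CPM in deficient libraries. Its groups overlapped too, with a log2 fold change of −0.05 (SE 0.062, adjusted p = 0.651) or 0.21 with the length correction. Bptf had −0.27 (SE 0.188, adjusted p = 0.399).

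The INO80 and SWR1-like ATPases exchange histone variants such as H2A.Z. Ep400, the ATPase of the TIP60 complex and the gene with the highest level per kilobase of these 3, had 90.7, 94.8 and 87.5 CPM in control libraries against 79.3, 81.6 and 75.3 CPM in deficient libraries. The groups did not overlap, and the log2 fold change of −0.21 (SE 0.063, adjusted p = 0.0880) turned to 0.06 with the length correction (adjusted p = 0.679, edgeR). The adjusted p was above 0.1 also with DESeq2 (0.136), library totals (0.407) and no filter (0.331). Srcap had 5.64, 5.08 and 6.32 CPM in control libraries against 6.03, 4.34 and 2.61 CPM in deficient libraries. Deficient replicate 1 lay among the controls, and the log2 fold change was −0.42 (SE 0.289, adjusted p = 0.369). Of the exon bases of Srcap, 61.7% overlap another gene on the same strand, so its counts are uncertain. Ino80 had 23.9, 22.5 and 23.4 CPM in control libraries against 22.7, 22.7 and 20.8 CPM in deficient libraries. Its groups overlapped, with a log2 fold change of −0.08 (SE 0.089, adjusted p = 0.603) that turned to 0.02 with the length correction.

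Long and short genes moved differently under the correction for exon length. The 19 tested genes of the set with at least 8000 bases of exon, a split chosen after the data were seen, had a median log2 fold change of −0.15, and all 2502 tested genes of that length had −0.20. With the length correction the medians were 0.06 and 0.01. In the 30 genes of the set under 8000 bases the median was −0.07 and became −0.05, against 0.01 and 0.02 over all 11428 tested genes of that length. The correction removed each library's trend of counts on exon length, whether technical or biological, and 14 of the 49 genes took the other sign under it. Cbx2, Pcgf2, Hdac2, Mta1 and Mtf2 stayed at an adjusted p of at most 0.1 (between 0.0474 and 0.0844, edgeR), whereas Chd4, Smarca5 and Ep400 did not. Pcgf5, which had an adjusted p of 0.201 before it, passed with the correction (log2 fold change 0.44, adjusted p = 0.0957).

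**Figure D3:**
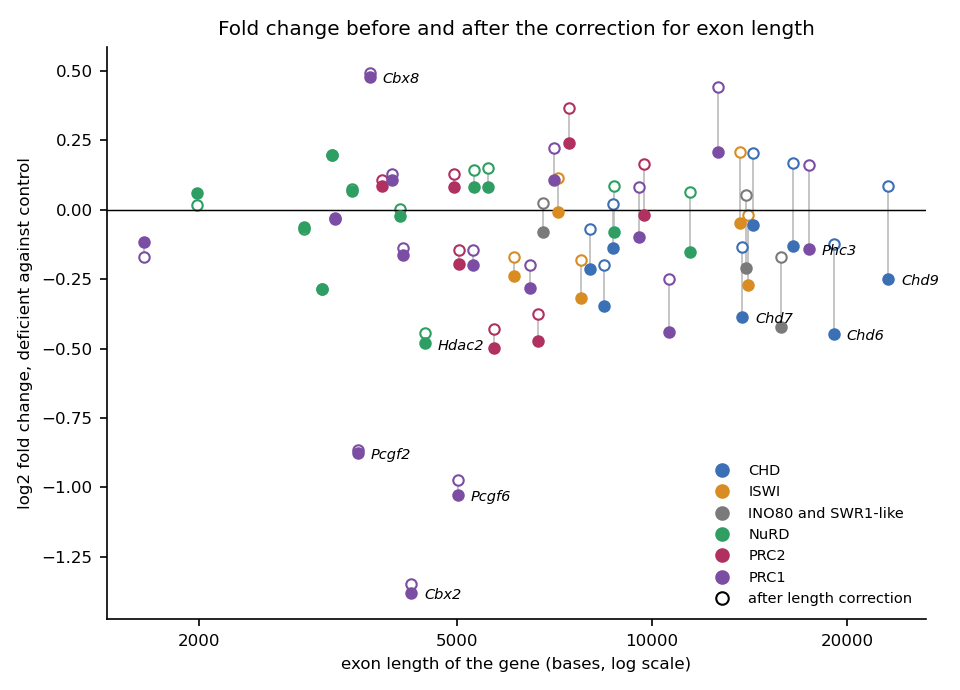
Log2 fold change of deficient against control libraries (vertical) against the exon length of each of the 49 tested genes (horizontal, log scale), filled before and open after the correction for exon length. A line joins both values of a gene. Genes of more than 8000 bases moved upward and 14 of the 49 genes took the other sign, while Cbx2 went from −1.38 to −1.35.

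Related subunits were also set against each other within each library, as the ratio of their levels per kilobase, over 12 pairs and with no test. The ratio Hdac2 to Hdac1 was 0.731, 0.932 and 0.647 in the controls and 0.534, 0.565 and 0.475 in the deficient libraries. The ratio Pcgf2 to Bmi1 was 0.297, 0.321 and 0.303 in the controls and 0.136, 0.196 and 0.131 in the deficient libraries. The ratio Mta2 to Mta1 was 1.55, 1.40 and 1.66 in the controls and 1.78, 1.77 and 1.96 in the deficient libraries. In these 3 pairs the groups did not overlap, and in the other 9 they did. No background was taken for ratios. Among single genes, all deficient libraries lay below all controls in 16.4% of those tested and above them in 15%. The ratio Ezh2 to Ezh1 was 1.15, 1.12 and 0.793 in the controls and 0.960, 0.488 and 0.476 in the deficient libraries, so deficient replicate 1 lay among the controls. Smarca5 to Smarca1 spread the most, from 6.08 to 22.5 in the deficient libraries.

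**Figure D4:**
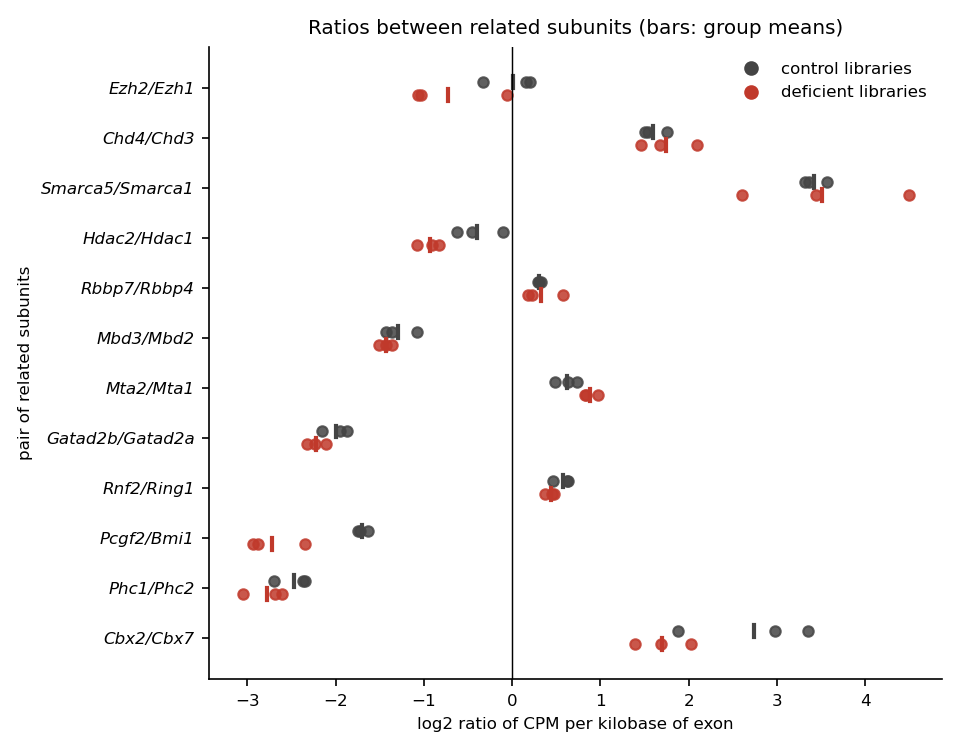
Log2 ratio of the levels per kilobase of exon for 12 pairs of related subunits, 1 point per library, with group means as bars. Hdac2/Hdac1 and Pcgf2/Bmi1 have all deficient libraries below the controls, Mta2/Mta1 has them above, and the mean of Ezh2/Ezh1 went from 0.01 to −0.72 with overlap.

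The 3 deficient libraries differed from each other. Taking each gene of the set against its control mean on the log2 scale, the median was −0.01 in deficient replicate 1, −0.10 in deficient replicate 2 and −0.21 in deficient replicate 3, and the controls lay between −0.07 and 0.07. In deficient replicates 1 to 3 the neural crest marker share was 0.00779%, 0.00486% and 0.00501%, and the macrophage share 1.49%, 1.52% and 1.71%. Control replicate 3 had a macrophage share of 1.53% and a median of −0.07. Whether these move the genes of the set was not tested.

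**Figure D5:**
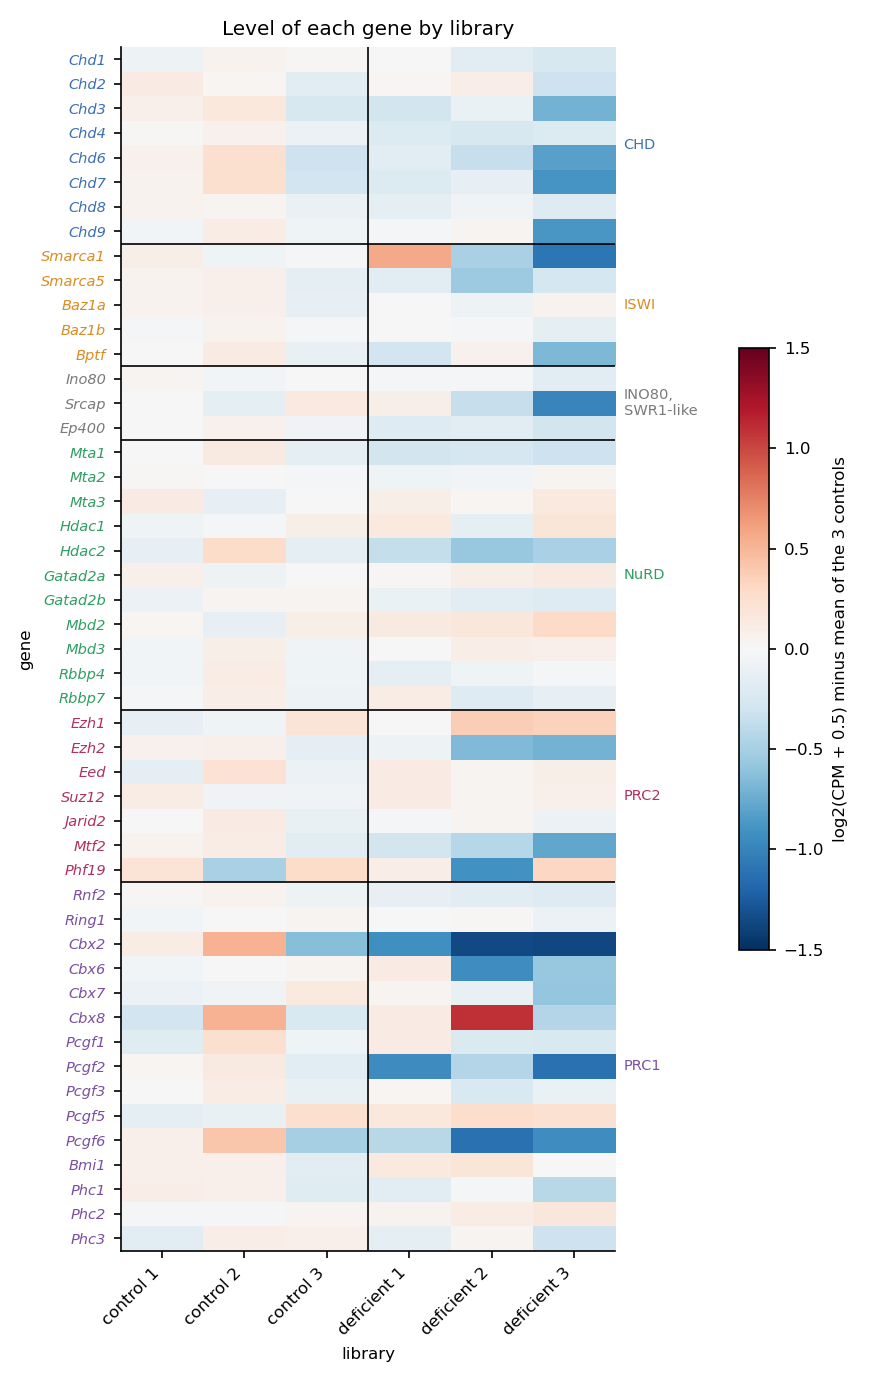
Level of each of the 49 tested genes in each library, as log2(CPM + 0.5) minus the mean of the 3 controls, with families set apart by lines. Cbx2, Pcgf2 and Pcgf6 are the darkest rows in the deficient libraries, deficient replicate 3 is darker than the others over much of the CHD family before any length correction, and most NuRD genes stay pale.

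Other subunits and partners of the same complexes, together with 3 remodelers outside them (Chd1l, Hells and Atrx), made up a list of 68 genes. Of the list 67 were matched and 65 tested, and these centred on a log2 fold change of −0.04 (median). Of these 1 was called lower, or 1.54% against 4.88% of all tested genes, and 0 were called higher. The called gene was Hells, a remodeler of the SNF2 family linked to DNA methylation and not a subunit of these complexes. None of the 22 Polycomb, 6 NuRD, 7 ISWI and 27 INO80, SRCAP and TIP60 genes of the list that were tested was called. Hells had 15.5, 13.9 and 12.6 CPM in control libraries against 9.32, 4.95 and 4.75 CPM in deficient libraries. The groups did not overlap, and the log2 fold change was −1.17 (SE 0.249, adjusted p = 0.0599). Hells was no longer called when control replicates 1 (edgeR, adjusted p = 0.222) or 2 (0.195), or deficient replicates 2 (0.104) or 3 (0.164), were left out. On the adjusted p alone 0 of the 65 rose, against 4.18% of all tested genes. In that direction 4 had an unadjusted p under 0.05 by edgeR, against 1684 of all 13961 tested genes. On the adjusted p 3 of the 65 fell, or 4.62% against 7.75% of all tested genes. Besides Hells these were Atrx, which deposits histone H3.3 (−0.56), and Rsf1, an ISWI partner (−0.32), both named after their values were seen. With the length correction they had −0.22 and 0.01, neither of which passed, and both had adjusted p above 0.1 when control replicates 1 or 2, or deficient replicates 2 or 3, were left out. The groups did not overlap in 9 genes that were lower and 10 that were higher, or 13.8% and 15.4%, against 16.4% and 15% of all tested genes.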

How the data were processed

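The authors sorted GFP+ NCCs, made strand-specific poly(A) libraries, trimmed reads (cutadapt 1.18, checked with FastQC 0.11.7, per the labels), aligned them to GRCm38 with STAR and assigned them by featureCounts. The authors deposited whole-number counts per gene, without normalization. The annotation release, strand setting and treatment of multi-mapping reads are not given in the sources used here. Identifiers were matched without version to GENCODE M21, with 46488 of 46983 found. The genes of the set and all lists were chosen with earlier results of these data known.

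Counts were filtered with filterByExpr (minimum count 10, minimum total count 15), normalized by TMM and fitted with edgeR 4.0.16 (R 4.3.3) by a robust quasi-likelihood test, with Benjamini-Hochberg adjustment over all 13961 tested genes. SEs come from the F statistic, and CPM uses normalized library sizes. Depth was between 8191219 and 19808620 counts. Genes named in full were those called and, per family, those with the lowest and highest log2 fold change and the highest CPM per kilobase. Other named genes were picked after their values were seen. Alternatives were DESeq2 1.42.0, limma-voom (limma 3.58.1), library totals, no filter (every gene with a count), a lowess trend on exon length (span 0.3), a replicate block, other thresholds and leaving out each library. The test script was tested on simulated data. Promoter windows come from RefSeq (GRCm38.p6). No outlier test was made, as groups hold 3 libraries.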

Additional observations from a re-analysis of the deposited data

How the results depend on the processing

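Between 32 and 46 of the 49 genes kept both direction and side of the threshold under each tool, normalization, filter or length setting, 40 under the replicate block, and between 36 and 43 with a library left out. The number called lower was 2 with DESeq2, limma-voom, library totals or the length correction, 3 with no filter or the replicate block, 0 at an adjusted p of at most 0.05 and 8 on the adjusted p alone. With a library left out it ran from 0 to 6. The number at an adjusted p of at most 0.1 was 8 with DESeq2 and limma-voom, 4 with library totals, 6 with the length correction and 12 with no filter. It was 17 with the replicate block and 0 to 13 with a library left out. Over all tested genes the share at that threshold was 11.9%. It was 14.8% with DESeq2, 13.6% with limma-voom, 13.1% with the length correction and 9.52% with no filter. With library totals it was 7.75%, and with the replicate block 26.2%. It was 0% without control replicate 1, 0.510% without control replicate 2 and 26.0% without control replicate 3. Without deficient replicates 1, 2 and 3 it was 14.8%, 2.89% and 0.133%. The number called higher was 0 in all 14 alternatives. The labels do not say whether replicate numbers pair the samples. The numbers used here, also for the replicate block, are those of the sample titles. The headers of the count columns number the deficient libraries differently. Deviations of same-numbered libraries correlated at 0.03, −0.03 and 0.29, and those of differently numbered ones between −0.30 and 0.26. With 3 libraries per group, centred within the group, these correlations cannot decide it. The median log2 fold change of the set reversed with the length correction (0.018) and ran from −0.18 to −0.061 with a library left out. The cause of these changes was not tested.

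With the length correction the log2 fold change reversed for Chd1 (0.020), Chd2 (0.21), Chd8 (0.17), Chd9 (0.085), Baz1a (0.11), Baz1b (0.21), Ino80 (0.023), Ep400 (0.055), Mta2 (0.004), Gatad2b (0.065), Rbbp4 (0.085), Jarid2 (0.16), Pcgf3 (0.084) and Phc3 (0.16). With library totals it reversed for Chd2 (0.005), Baz1a (0.058), Baz1b (0.013), Mta2 (0.041), Rbbp7 (0.003), Jarid2 (0.043) and Ring1 (0.026), and with no filter for Baz1a (0.042), Baz1b (0.001), Mta2 (0.027), Jarid2 (0.030) and Ring1 (0.017). Baz1a also reversed with DESeq2 (0.011) and limma-voom (0.003). With a library left out, values ran from −0.13 to 0.062 for Chd2, −0.42 to 0.008 for Chd9, −0.92 to 0.13 for Smarca1, −0.070 to 0.030 for Baz1a, −0.15 to 0.002 for Rbbp7, −0.079 to 0.041 for Jarid2, −0.62 to 0.21 for Phf19, −0.056 to 0.003 for Ring1, −0.23 to 0.85 for Cbx8 and −0.25 to 0.016 for Pcgf1. Genes of few counts, such as Phf19 (5 to 32 counts per library) and Cbx8 (11 to 63), had the widest SEs, which limits what depth can show there.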
